A study of Nothobranchius furzeri with 2 samples.

Results

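The genes described here were the fatty acid binding protein (FABP) and perilipin (PLIN) genes of the turquoise killifish Nothobranchius furzeri, chosen as every row of the count table whose gene name began with FABP or PLIN followed by a digit. The rule found 11 of 18529 annotated genes, of which 7 were FABP genes (FABP1, FABP2, FABP3, 2 genes named FABP6, FABP7A and FABP10A) and 4 were perilipin genes (PLIN1, PLIN2, PLIN4 and PLIN5). The study asked how the loss of germ cells changed the somatic tissues of each sex. All fish were of the inbred, short-lived GRZ strain and had been injected as embryos, with a morpholino against dead end (dnd) in the germ cell-removed (GR) fish and with a control morpholino in the control fish. A morpholino acts in the early embryo, so the GR fish model a loss of germ cells from that stage on. Female liver and the muscle of both sexes are described, in 12 groups of 5 libraries, each library from 1 fish. The groups were old GR (3 months), old control (3 months), young GR (1.5 months) and young control (1.5 months) females for liver and muscle, and the same 4 groups of males for muscle.

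FABPs are small cytosolic proteins that hold a fatty acid or another lipid in a barrel-shaped pocket and carry it between membranes, enzymes and the nucleus. Different tissues use different family members, and in fish FABP10A is the abundant liver-basic form made by hepatocytes. Perilipins coat the surface of lipid droplets and set how readily lipases reach the stored triglyceride.

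RNA was measured by BRB-seq, in which poly(A) RNA of each fish is tagged with its own barcode and with unique molecular identifiers (UMIs), pooled and sequenced from the 3′ end. The female livers held 163968 to 256671 UMI counts in GR fish and 28062 to 180764 in control fish, and the muscles held 80573 to 221897. On plain library totals, 1 count was therefore worth 3.9 to 6.1 counts scaled to a library of 1000000 (CPM) in a GR liver. In a control liver it was worth 5.53 to 35.6 CPM, and these values shift with the scaling of the levels. Levels are CPM of libraries scaled by the trimmed mean of M values (TMM), separately for each tissue. The CPM of liver and muscle are therefore not on a common scale, while the edgeR fits between tissues scaled both together. The vitellogenins, estrogen-induced yolk precursors made in the liver, took 0.00799 to 0.0168% of the counts of GR livers and 15 to 23.2% of those of control livers, without overlap, so each female liver stood with its treatment label. This share was not taken as a check of the age or sex labels. The 2 rows named DND held 1 and 26 counts in all 60 libraries and give no check of the knockdown in these tissues. The hepatocyte markers were present in every female liver. RNA of fewer cells of a type and less RNA per cell cannot be told apart in these bulk tissues.

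FABP3 was measured in every library, and FABP10A in every liver. FABP1 had 106 counts in 17 of the 20 livers and PLIN5 had 107 counts in 18 of them, and the other members were sparser in liver. PLIN2, the ubiquitous droplet coat of mammals, had 1 count in all 60 libraries, in a young GR liver, and PLIN4 had 1 count, in a young control male muscle. The PLIN2 gene model shares 2763 bases with CDCA9, and that of PLIN4 shares 694 bases with the unnamed gene Nfu_g_1_016864, both on the other strand. Whether these overlaps lowered the 2 counts was not tested, so they may not show a lack of expression. FABP7A, the form of brain and glia in mammals, had 0 counts in the 20 livers and 19 counts in 16 of the 40 muscles. The plot of all 11 genes by group shows this range.

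**Figure D1:**
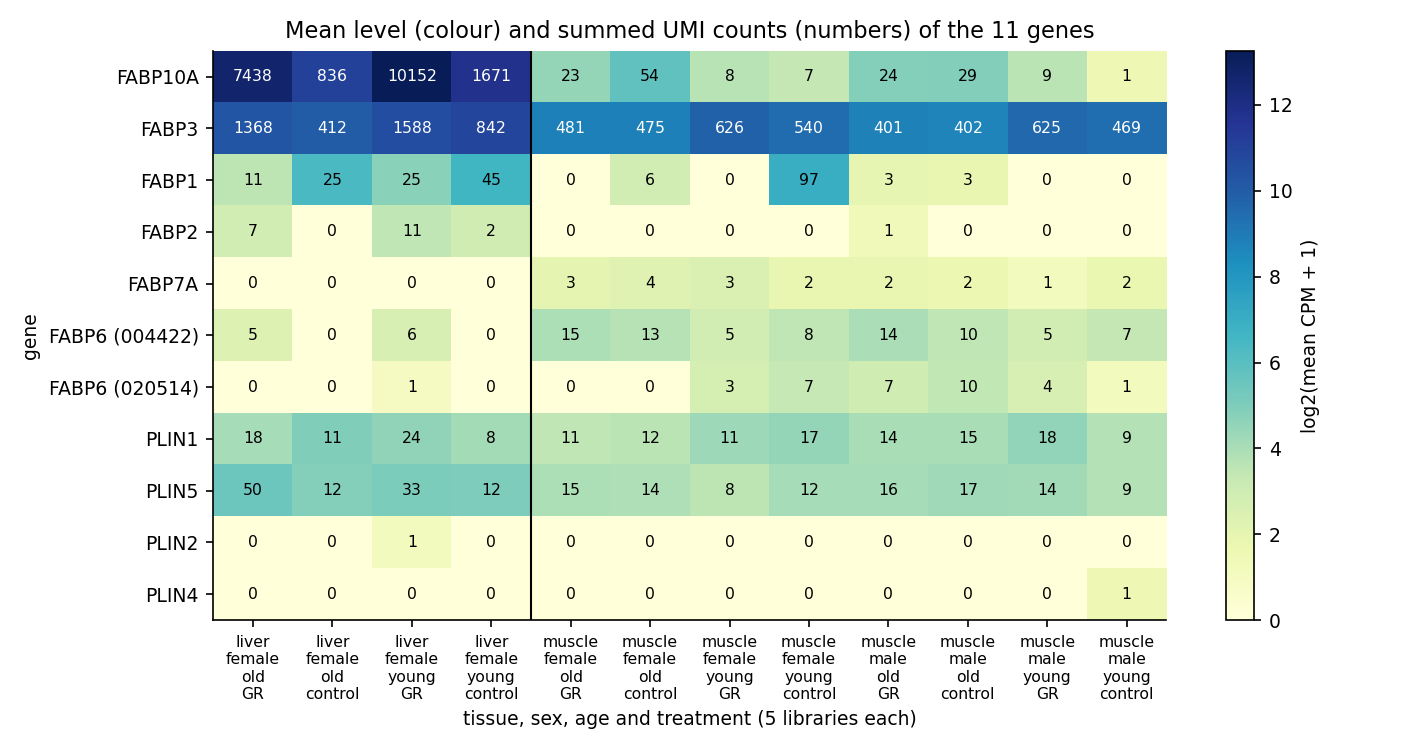
Mean level of each of the 11 genes (rows) in each of the 12 groups of 5 libraries (columns), with colour as log2(mean CPM + 1) and numbers as summed UMI counts. FABP10A stands highest in the liver columns, FABP3 is measured in every column, and PLIN2 and PLIN4 rest on 1 count each.

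FABP10A rose in the livers of GR females at both ages. In young females it stood at 8405, 8786, 9729.6, 11217 and 10999.6 CPM in GR livers, against 2993, 5187, 2512, 4408 and 2642 CPM in control livers. In old females it stood at 7386.5, 8199, 6203, 3830.5 and 7201 CPM in GR livers, against 2509, 1359.7, 1224, 2979.6 and 2637 CPM in control livers. Every GR liver was above every control liver of its age, and the old GR liver of replicate 4 was the lowest of the 10 GR livers.

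In young females FABP10A averaged 9828 ± 1267 CPM in GR livers and 3549 ± 1186 CPM in control livers (SD, n = 5 each), a log2 fold change of 1.54 (SE 0.18, adjusted p = 3.4e-08, edgeR quasi-likelihood test with Benjamini-Hochberg adjustment over all genes). In old females it averaged 6564 ± 1685 CPM in GR livers and 2142 ± 796 CPM in control livers, a log2 fold change of 1.49 (SE 0.27, adjusted p = 1.7e-05, edgeR). These calls held under every alternative that scaled libraries over all genes and without any 1 library. Of the 6 members tested in young livers, FABP10A was 1 of 2 called, where 9.58% of all 5459 genes tested were called, and groups without overlap and higher in GR fish occurred in 7.07% of those genes. Of the 5 members tested in old livers, it was again 1 of 2 called, where 8.90% of 5576 genes were called, and 10.5% were higher in GR fish without overlap.

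The scaling touched these values, and the median of all genes was itself 0.43 higher in young and 0.46 higher in old GR livers on the log2 scale. Relative to that median, FABP10A was higher by 1.11 in young and 1.03 in old GR livers. The median itself moved with the genes kept and with depth, so these relative values hold for the main filter only. With edgeR's filterByExpr the median was 0.034 in young and 0.15 in old livers. With all libraries thinned to 1 total it was 0.137 in young and 0.058 in old livers. Of the genes called in young livers 81.5% were higher in GR fish, and 52.2% with relative log expression (RLE) size factors, while in old livers the shares were 78% and 58.9%.

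The hepatocyte markers moved with FABP10A. All 6 symbols of the list, which are secreted plasma proteins of the liver such as apolipoprotein A1 and fibrinogen, were found, in 8 rows, none stood at 0 in any liver group, and the mean of each of the 8 rows was higher in GR livers at both ages. Their summed level ran between 107974 and 136158 CPM in young GR livers, against 26388 and 41989.5 CPM in young control livers. In old fish the sum ran between 88569.9 and 113355 CPM in GR livers, against 16214 and 37087 CPM in control livers. Per 1000 counts of these markers, FABP10A gave 78.8 ± 8.5 counts in young GR livers and 104.7 ± 18.5 in young control livers (SD, n = 5 each), a difference of -24.7% (exact two-sided permutation p = 0.0317, adjusted p = 0.119 over 6 such ratios). In old fish it gave 64.2 ± 14.6 counts in GR livers and 82.4 ± 11.0 in control livers, a difference of -22.1% (exact permutation p = 0.0794, adjusted p = 0.159). FABP10A was thus higher in GR livers per all counts and not higher per count of this sum, as the plot of both measures shows. The sum was mostly that of AHSG, TFA and APOA1. It also holds FGA and FGB, which the paper reports as raised by germ cell removal only in females. The sum is therefore not a treatment-neutral measure of hepatocytes. Its rows rose unequally, in young fish from 2657 to 6880 CPM for FGB and from 9188 to 39079 CPM for AHSG. Ratios to single markers were not tested. The exocrine pancreas markers, 4 of 9 symbols in 7 rows, summed to 13631 to 58513 CPM in young GR livers, against 8828 to 22479 CPM in young control livers, and to 5653 to 18632 CPM in old GR livers, against 4448 to 10986 CPM in old control livers. The pancreas sums overlapped between treatments at both ages, and their part in the member levels was not tested.

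**Figure D2:**
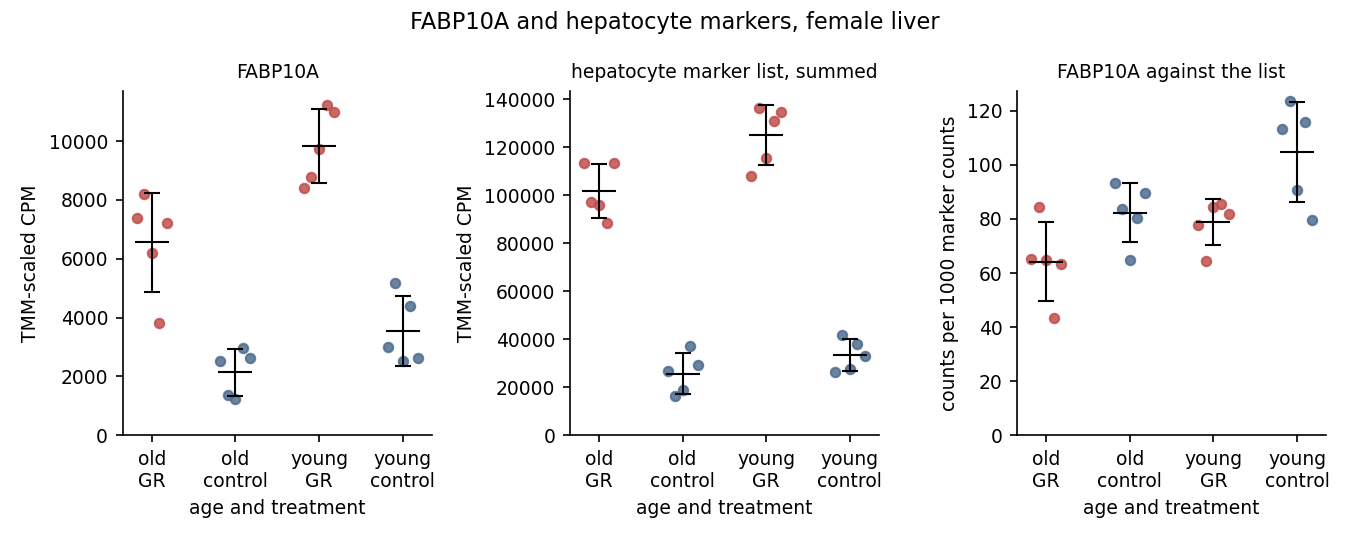
FABP10A in TMM-scaled CPM (left), the summed hepatocyte markers in the same unit (middle) and FABP10A counts per 1000 hepatocyte marker counts (right) in female livers. Points are livers, and bars are the mean and SD of 5. GR livers lie above control livers in the left and middle panels, and the groups overlap in the right panel.

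With age, FABP10A did not pass the test. In GR livers it averaged 6564 ± 1685 CPM in old and 9828 ± 1267 CPM in young females (SD, n = 5 each), a log2 difference of -0.62 (SE 0.18, adjusted p = 0.0588, edgeR), and the groups did not overlap, which 1.96% of the 6694 genes tested also showed in that direction. That difference was called by DESeq2 (adjusted p = 0.0413), with edgeR's filterByExpr (adjusted p = 0.0157), with every gene of 1 or more counts kept (adjusted p = 0.0309) and without old replicate 2 (adjusted p = 0.0374). In control livers the log2 difference was -0.48 (SE 0.19, adjusted p = 0.217, edgeR), with means of 2142 ± 796 CPM in old and 3549 ± 1186 CPM in young fish. The change with germ cell removal itself differed between the ages by 0.13 (SE 0.32, adjusted p = 0.979, edgeR interaction).

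FABP1, the liver-type form that carries fatty acids in mammalian hepatocytes and enterocytes, went the other way. In young females it stood at 45.7, 0, 0, 76.1 and 5.87 CPM in GR livers, against 76.3, 116, 96.6, 131 and 64.8 CPM in control livers. In old females it stood at 10.7, 3.74, 8.11, 0 and 30.2 CPM in GR livers, against 49.9, 154, 40.8, 41.6 and 111 CPM in control livers. The old groups did not overlap, and 1 young GR liver (replicate 4) reached the control range.

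These levels rest on few counts. The 5 libraries held 9, 0, 0, 15 and 1 counts in young GR livers, against 4, 14, 6, 17 and 4 in young control livers, and 2, 1, 2, 0 and 6 in old GR livers, against 3, 6, 2, 5 and 9 in old control livers. Of the control libraries, 3 young and 5 old ones thus carried fewer than 10 counts of FABP1.

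FABP1 fell to 10.6 ± 11.7 CPM in old GR livers, against 79.4 ± 50.8 CPM in old control livers (SD, n = 5 each), a log2 fold change of -2.91 (SE 0.56, adjusted p = 5.5e-05, edgeR), and 1.18% of all genes tested were lower in GR fish without overlap. In young females it fell to 25.5 ± 34.1 CPM in GR livers, against 97.1 ± 27.5 CPM in control livers, a log2 fold change of -1.96 (SE 0.52, adjusted p = 0.0114, edgeR). The young call was lost with DESeq2 (adjusted p = 0.162), with all libraries thinned to 1 total (adjusted p = 0.104) and without control replicate 4 (adjusted p = 0.0614), and the old call with thinned libraries (adjusted p = 0.0535). The change differed between the ages by -0.76 (SE 0.77, adjusted p = 0.867, edgeR interaction), and the age differences were -1.29 (SE 0.81, adjusted p = 0.516) in GR and -0.27 (SE 0.40, adjusted p = 0.876) in control livers.

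**Figure D3:**
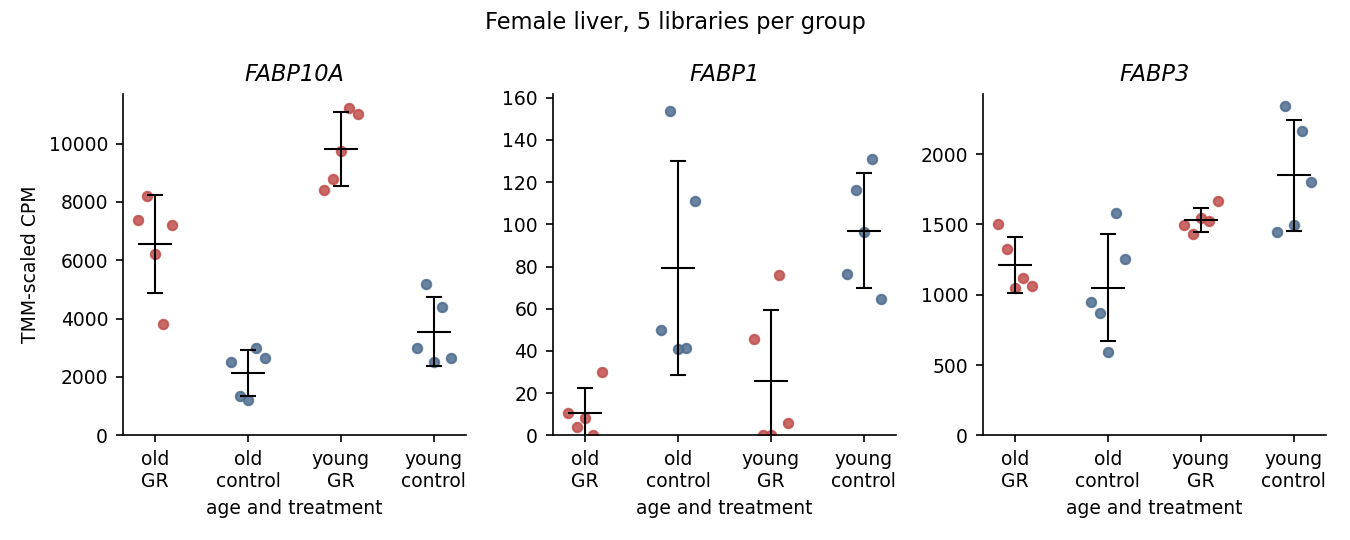
Levels of FABP10A, FABP1 and FABP3 in the 20 female livers, in TMM-scaled CPM. Points are livers, and bars are the mean and SD of 5. FABP10A lies higher and FABP1 lower in GR than in control livers, while the GR and control groups of FABP3 overlap.

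FABP3, the heart and muscle form that carries fatty acids towards mitochondria, was also abundant in liver, and there the test did not separate the groups. In young females it stood at 1494, 1432, 1548, 1521 and 1668 CPM in GR livers, against 1449, 2344, 1498, 2162 and 1799 CPM in control livers (log2 difference -0.20, SE 0.16, adjusted p = 0.519, edgeR). In old females it stood at 1504, 1323.5, 1047, 1116 and 1062.5 CPM in GR livers, against 947, 872, 592, 1581 and 1257 CPM in control livers (log2 difference 0.06, SE 0.25, adjusted p = 0.926, edgeR). The groups overlapped at both ages, and the control livers spread more widely than the GR livers.

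The young value depended on the scaling and on the genes kept. It was called lower in GR livers with RLE size factors (log2 difference -0.50, adjusted p = 0.0245, edgeR), with DESeq2 (-0.51, adjusted p = 0.0015) and with filterByExpr (-0.70, adjusted p = 3.6e-05, edgeR), and was 0.03 with unscaled library totals. In old livers the direction turned with RLE size factors, DESeq2, filterByExpr and thinning, without a call.

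With age, FABP3 in liver differed by -0.37 (SE 0.16, adjusted p = 0.261, edgeR) in GR females and by -0.56 (SE 0.19, adjusted p = 0.136, edgeR) in control females, on the log2 scale. The mean was 1211 ± 198 CPM in old and 1533 ± 87 CPM in young GR livers, and 1050 ± 380 CPM in old and 1850 ± 397 CPM in young control livers (SD, n = 5 each). The GR difference was called with filterByExpr (adjusted p = 0.0269, edgeR). The control difference was called by DESeq2 (adjusted p = 0.0266), with filterByExpr (adjusted p = 0.0302, edgeR), without young replicate 1 (adjusted p = 0.0285, edgeR) and without old replicate 4 (adjusted p = 0.0459, edgeR).

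The perilipins that could be tested in liver did not pass. PLIN1, the adipocyte droplet coat that holds lipases back, ran between 15.2 and 32.8 CPM in young GR livers, against 0 and 41.6 CPM in young control livers (log2 difference 0.37, SE 0.62, adjusted p = 0.786, edgeR). In old females PLIN1 ran between 0 and 30.2 CPM in GR livers, against 0 and 51.3 CPM in control livers (log2 difference -1.05, SE 0.62, adjusted p = 0.334, edgeR). These PLIN1 values rest on 8 to 24 counts a group. The PLIN1 gene model lies whole inside that of the ribosomal protein gene RPS6 on the other strand, and the strand setting of the counting is not given in the sources used here, so reads of the 2 genes may not be told apart.

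PLIN5, the coat of droplets beside mitochondria in oxidative tissues of mammals, ran between 17.2 and 50.8 CPM in young GR livers, against 16.6 and 48.6 CPM in young control livers (log2 difference 0.24, SE 0.49, adjusted p = 0.826, edgeR). In old females PLIN5 ran between 33.8 and 56.1 CPM in GR livers, against 0 and 49.9 CPM in control livers (log2 difference 0.27, SE 0.51, adjusted p = 0.826, edgeR). The ranges overlapped at both ages. By its neighbouring genes, this row matched plin3 in the RefSeq annotation, so its name is uncertain. With age PLIN1 differed by -0.55 (SE 0.51, adjusted p = 0.693) in GR and 0.91 (SE 0.68, adjusted p = 0.670) in control livers, and PLIN5 by 0.43 (SE 0.33, adjusted p = 0.621) and 0.46 (SE 0.60, adjusted p = 0.855), all by edgeR.

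FABP2, the intestinal form, was nearly absent from liver. It had 0, 2, 2, 0 and 3 counts in old GR livers and none in old control livers, and 2, 0, 6, 1 and 2 counts in young GR livers, against 0, 0, 0, 0 and 2 in young control livers. Taking 3 counts over the shallower old control livers as a floor, the summed old counts gave 0.733-fold, so they show no rise. They were too few for the edgeR test. The young difference was not called (log2 difference 1.11, SE 1.08, adjusted p = 0.607, edgeR), and rested on replicate 5 for the control livers, without which they held 0 counts (adjusted p = 0.219, edgeR). Not called either was the difference between old and young GR livers (-0.74, SE 0.75, adjusted p = 0.721, edgeR). The enterocyte markers, 2 of 5 symbols in 4 rows, summed to 4.31 to 65.9 CPM in young GR livers, against 0 to 16.1 CPM in young control livers, and their part in these counts was not tested. FABP6, the ileal bile acid binding form, had 11 counts over 20 livers for Nfu_g_1_004422 (old against young GR livers -0.37, SE 0.84, adjusted p = 0.90, edgeR) and 1 for Nfu_g_1_020514.

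None of the 5 members tested in control livers passed with age, where 2.1% of all 3385 genes tested did, nor did any of the 7 tested in GR livers, where 3.54% did. At an unadjusted p under 0.05 by edgeR, 2 members stood in each of these comparisons, and DESeq2 called 1 in each. The share of all genes at that unadjusted cutoff was not computed. None of 7 members passed the interaction of age and germ cell removal in liver, where 0.0408% of genes did, with 0 members at an unadjusted p under 0.05 and 0 called by DESeq2.

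**Figure D4:**
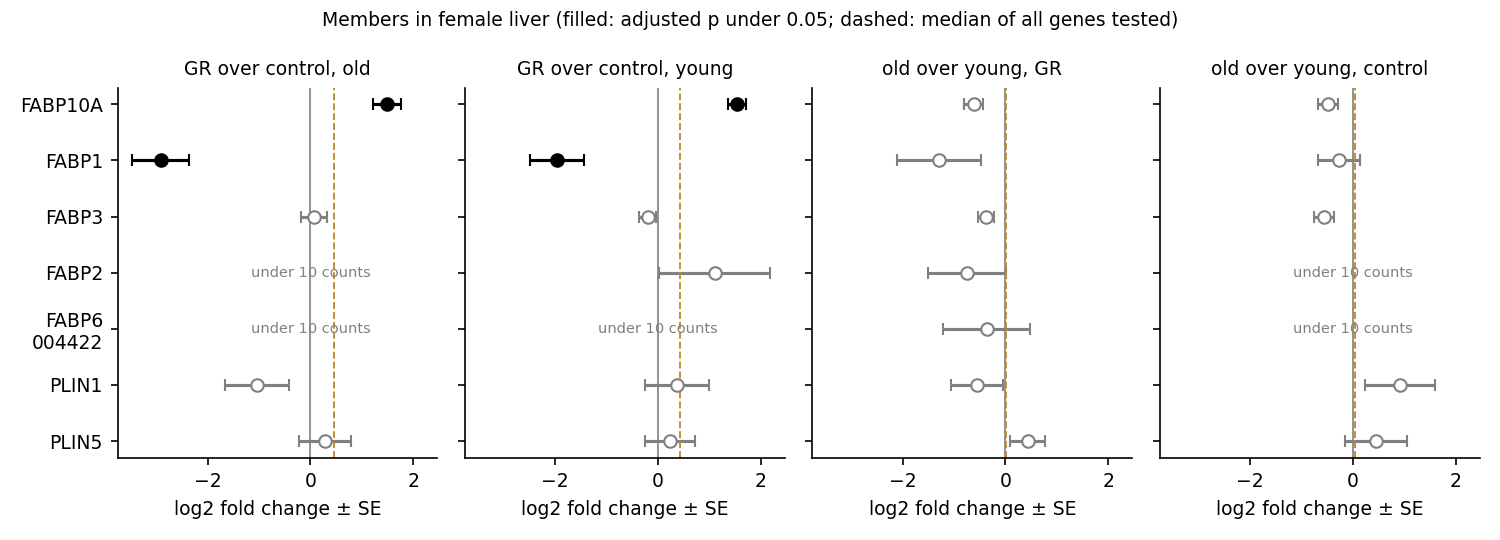
Log2 fold changes of the members tested in female liver, by edgeR, with bars of 1 standard error, GR over control in old and young females and old over young in GR and control females. Filled points passed the test and dashed lines are the median of all genes tested. FABP10A at 1.54 and 1.49 and FABP1 at -1.96 and -2.91 are the members called with germ cell removal, and no member was called with age.

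In muscle, FABP3 fell with age in all 4 groups of sex and treatment. In GR females it stood at 469.5, 417.9, 426.9, 338 and 582.5 CPM in old muscles, against 1059.5, 829, 885, 894 and 779 CPM in young muscles. In control females it stood at 466, 563, 419.9, 443 and 355.5 CPM in old muscles, against 602, 615, 756.5, 591 and 931 CPM in young muscles. Every old female muscle was below every young one of its treatment, although in control females the gap between 563 and 591 CPM was narrow.

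In GR males FABP3 stood at 614, 403, 561, 288 and 345 CPM in old muscles, against 811, 922, 815, 709 and 640.5 CPM in young muscles. In control males it stood at 483, 449, 463, 292.5 and 376 CPM in old muscles, against 625.5, 658, 749.5, 521.5 and 799 CPM in young muscles. The old and young males did not overlap in either treatment.

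The log2 change with age was -1.15 in GR females (SE 0.19, adjusted p = 4.7e-05), -0.78 in control females (SE 0.19, adjusted p = 0.0215), -0.91 in GR males (SE 0.23, adjusted p = 0.0248) and -0.82 in control males (SE 0.21, adjusted p = 0.0144), all by edgeR with Benjamini-Hochberg adjustment. The mean was 447 ± 89 CPM in old and 889 ± 106 CPM in young GR females, and 449 ± 76 CPM in old and 699 ± 146 CPM in young control females (SD, n = 5 each). In males it was 442 ± 140 CPM in old and 779 ± 108 CPM in young GR fish, and 413 ± 78 CPM in old and 671 ± 109 CPM in young control fish. The members called with age were 1 of 5 tested in GR females, 2 of 6 in control females, 1 of 6 in GR males and 2 of 6 in control males, where 6.02%, 3.99%, 3.35% and 4.63% of all genes tested were called. Groups without overlap and lower in old fish occurred in 1.88%, 2.1%, 1.59% and 1.41% of genes in the same order. FABP3 was among the members called in each group. The other in control females was FABP1, lower in old fish and mostly from 1 library, and in control males it was FABP10A, higher in old fish.

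The age change of FABP3 did not differ detectably between treatments, by -0.39 (SE 0.27, adjusted p = 0.847, edgeR interaction) in females and -0.12 (SE 0.29, adjusted p = 1.0, edgeR interaction) in males. With unscaled library totals the fall remained a call in GR females, while it was -0.37 (adjusted p = 0.171, edgeR) in control females, -0.43 (adjusted p = 0.165) in GR males and -0.27 (adjusted p = 0.334) in control males. In control females the call was also lost with every gene of 1 or more counts kept (-0.55, adjusted p = 0.114, edgeR) and with scaling from genes at or below 1% of every library (-0.62, adjusted p = 0.0588, edgeR). Leaving out 1 library ended the call for 4 libraries in control females (highest adjusted p = 0.0851, without young replicate 5), for 5 in GR males (highest adjusted p = 0.0794, without old replicate 5) and for young replicate 5 in control males (adjusted p = 0.0629), all by edgeR, and for none in GR females.

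The summed skeletal muscle markers were also lower in old muscle. Of the list of contractile and calcium-handling genes, 5 of 7 symbols were found, in 8 rows, and the sum was mostly that of MYLPFA and TNNT3A. The mean level was lower in old muscle for 5 of the 8 rows in GR females, 7 in control females, 6 in GR males and 7 in control males. The rows with a higher mean were ATP2A1, a calcium pump (51.0 CPM in old and 44.5 CPM in young GR females, and also higher in old males of both treatments), MYBPC2A (8.87 CPM in old and 3.59 CPM in young GR females, and also higher in old control females and GR males) and, in GR females alone, MYLPF (1 OF 2). The summed level ran between 63928 and 90694.7 CPM in old and 109802 and 156848 CPM in young GR females, and between 66611 and 95486 CPM in old and 110010.6 and 144625 CPM in young control females. In males it ran between 60900.1 and 98494.7 CPM in old and 126803 and 161662 CPM in young GR fish, and between 52195 and 78708 CPM in old and 127769 and 160619 CPM in young control fish.

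Per 1000 counts of these markers, FABP3 gave 5.93 ± 0.44 counts in old and 6.52 ± 0.75 in young GR females (-9.04%, exact permutation p = 0.183), and 5.46 ± 0.84 in old and 5.23 ± 0.88 in young control females (4.24%, exact permutation p = 0.675). In males it gave 5.75 ± 0.96 in old and 5.38 ± 0.63 in young GR fish (6.99%, exact permutation p = 0.468), and 6.13 ± 0.98 in old and 4.68 ± 0.61 in young control fish (31%, exact permutation p = 0.0397, adjusted p = 0.119 over 6 such ratios). FABP3 was therefore lower in old muscle in TMM-scaled CPM, and per muscle marker count no decrease passed the exact test.

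**Figure D5:**
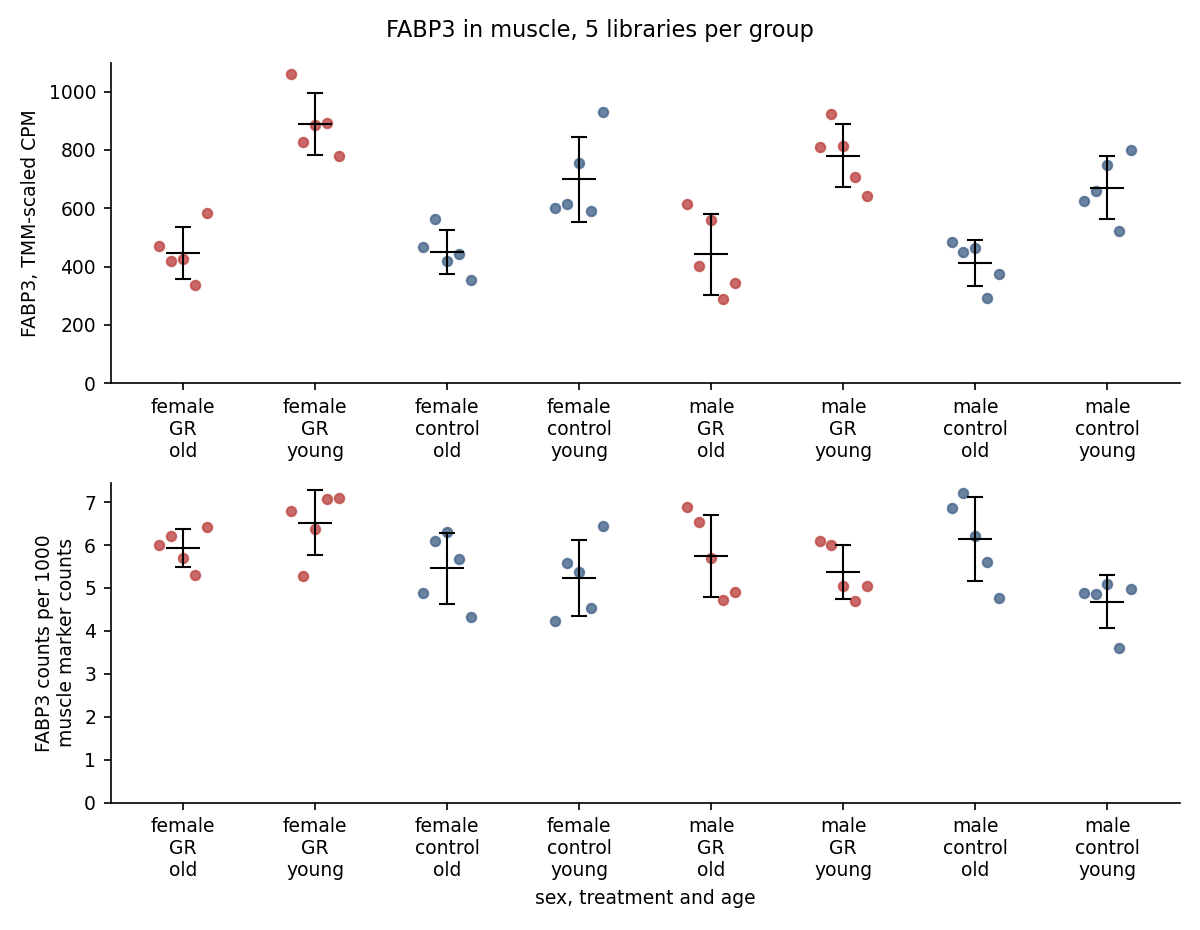
FABP3 in TMM-scaled CPM and per 1000 skeletal muscle marker counts in the 40 muscles, by sex, treatment and age. Points are muscles, and bars are the mean and SD of 5. Old muscles lie below young ones in CPM, and the groups overlap per marker count.

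Germ cell removal and sex gave no member call in muscle. Of the members tested with germ cell removal, 0 of 7 passed in young females, where 0.0639% of all genes did, 0 of 5 in old females (0.165%), 0 of 5 in young males (0.00%) and 0 of 6 in old males (0.00%). At an unadjusted p under 0.05 by edgeR, 2, 1, 1 and 0 members stood in those 4 comparisons. The 2 in young females were FABP3 and FABP1, and the FABP1 counts there came mostly from 1 library, as described below. Between female and male muscle 0 members passed by edgeR in the 4 comparisons, young control, young GR, old control and old GR fish, where 0.193%, 0.828%, 0.237% and 0.0672% of genes did, with 1, 0, 1 and 0 members at an unadjusted p under 0.05. The 1 in young control fish was FABP1, mostly from the same library. The interactions of germ cell removal with age or with sex in muscle also held no member call by edgeR, where 0.00% of genes were called. At an unadjusted p under 0.05 stood 0 members for age in females, 1 for age in males, 0 for sex in young and 1 for sex in old fish. DESeq2 called 0 members in each of these muscle comparisons of treatment, sex and interaction. The share of all genes at an unadjusted p under 0.05 was not computed, so these member counts cannot be read as an excess.

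FABP1 in muscle came mostly from 1 fish, which held 94 of its 109 counts over the 40 muscles. It was at or near 0 in the muscles except that of young control female replicate 2, which held 94 counts (596 CPM), against 0, 0, 0 and 3 counts in the other 4 of its group. The comparison of old with young control females called FABP1 lower by edgeR (adjusted p = 0.0436), while the exact permutation test of its mean CPM gave p = 0.722. Without that library 9 counts over 9 libraries remained and FABP1 was not tested. The same muscle held 14 counts of PLIN1. It also held 22 of the 25 counts of ZAR1 and 3 of the 3 counts of GDF9 found in the 60 libraries, both oocyte genes. The adipocyte list had 7 counts there, 44.4 CPM against 0 to 27.1 CPM in the other 39 muscles. All 7 were of CIDEC, and CFD, the only other symbol found of the list's 5, had 0 counts in that muscle. Its summed ovary markers were 177.5 CPM, against 0 to 14.5 CPM in the other 39 muscles, and its hepatocyte markers were 63.4 CPM, within their range of 6.14 to 1708 CPM. Their part in the FABP1 level was not tested.

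FABP10A in muscle was low, and its rise with age was called in control males only. It had 7, 1, 4, 9 and 8 counts in old control male muscles, against 1, 0, 0, 0 and 0 in young ones, a log2 difference of 3.69 (SE 0.87, adjusted p = 0.0083, edgeR; exact permutation p = 0.0159), with the groups touching at 1 count each. The call was lost when all muscle groups shared 1 fit (adjusted p = 0.0567, edgeR), and DESeq2 gave no adjusted p. In the other groups the mean was also higher in old muscle, without a call. It was 53.4 CPM in old and 9.32 CPM in young control females (log2 difference 2.29, SE 0.83, adjusted p = 0.129, edgeR). The means were 21.2 and 11.5 CPM in old and young GR females, and 27.5 and 11.1 CPM in old and young GR males. Hepatocyte markers stood at 71.5 to 1428 CPM in old and 6.14 to 79.8 CPM in young control male muscles. Over all 40 muscles FABP10A had 155 counts beside 2152 hepatocyte marker counts, 72.0 per 1000, against 20097 beside 269147 in the 20 livers, 74.7 per 1000. These pooled ratios join unlike groups. In control males the ratio was 48.1 per 1000 in old (29 counts) and 32.3 in young muscles (1 count). By group it ran between 32.3 and 212.6 in muscle, and between 65.1 and 110.4 in liver. The source of these muscle counts was not tested.

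Liver and muscle of the females were then set side by side, although each tissue was 1 sequencing pool, so tissue and pool cannot be told apart. The labels number the fish of both tissues alike, and whether 1 female gave both tissues is not stated. The main fits treated the libraries as unpaired. FABP10A was higher in liver in all 4 groups, by 7.98 in old GR, 4.79 in old control, 9.39 in young GR and 8.15 in young control females on the log2 scale (all called by edgeR). FABP3 was higher in liver by 1.17 in old GR (adjusted p = 1.9e-05), 0.51 in young GR (adjusted p = 0.0146) and 1.09 in young control females (adjusted p = 2.2e-05), and by 0.68 without a call in old control females (adjusted p = 0.0595), all by edgeR. The young GR call was lost without muscle replicate 2, 3 or 5 (highest adjusted p = 0.0666, edgeR). The median of all genes differed too, and relative to it FABP3, the form named for muscle in mammals, was higher in liver by 1.04 in old GR, 1.53 in old control, 0.058 in young GR and 1.34 in young control females.

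In old GR and young GR females, whose muscles held 0 counts, FABP1 was called higher in liver than in muscle by edgeR. Taking 3 counts over the muscle group as the floor, the summed counts gave 3.25-fold in old GR and 6.11-fold in young GR females. Such folds bound only the group at 0 and leave out the spread between fish. The young GR groups overlapped (exact permutation p = 0.167), with FABP1 counted in 3 of the 5 livers. In old control females FABP1 was higher in liver by 2.94 on the log2 scale (SE 0.68, edgeR call), which was 4.32 without muscle replicate 5. In young control females FABP1 was 97.1 ± 27.5 CPM in liver and 123 ± 265 CPM in muscle, scaled within each tissue (SD, n = 5 each). The edgeR fit of both tissues gave a log2 difference of -0.57 (SE 0.92, adjusted p = 0.652), and 94 of the 97 muscle counts came from replicate 2. The young GR call of FABP1 was lost with DESeq2 (adjusted p = 0.296). FABP2 was called higher in liver in young GR females, by 2.69-fold over the same floor on 11 liver counts. That call was lost without muscle replicate 1 (adjusted p = 0.0562, edgeR), and DESeq2 gave no adjusted p. PLIN5 was higher in liver in old GR females (log2 difference 1.38, SE 0.42, adjusted p = 0.0074, edgeR). FABP6 Nfu_g_1_004422 was lower in liver, by -1.78 in old GR females (SE 0.65, adjusted p = 0.0241, edgeR). In old control females, whose livers held 0 counts, it was 1.48-fold lower with such a floor for liver, on 13 muscle counts. The old GR call was lost with DESeq2 (adjusted p = 0.0865) and without liver replicate 4 (adjusted p = 0.0538, edgeR) or muscle replicate 4 (adjusted p = 0.0711, edgeR), and the old control call with DESeq2 (adjusted p = 0.102). The members called were 5 of 6 tested in old GR, 3 of 6 in old control, 4 of 7 in young GR and 2 of 5 in young control females, where 46.6%, 48.0%, 41.5% and 44.9% of all genes were called. FABP1 in both GR groups, FABP2 in young GR and FABP6 Nfu_g_1_004422 in old control females had 0 counts in 1 tissue. These members reached the minimum of 10 counts through the other tissue alone, so their calls, included in these numbers, are not independent support.

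The genes of the surrounding pathway were followed through 5 lists of fatty acid uptake, lipid-sensing receptors, lipases, droplet formation and other lipid-binding proteins, 52 genes in all. In young livers 3 of the 25 tested rose and 1 fell with germ cell removal, where 9.58% of all genes passed, with a median log2 change of 0.36 against 0.43 for all genes. In old livers 4 of the 28 tested rose and 1 fell, where 8.90% of all genes passed, with a median of 0.90 against 0.46. The fatty acid transporter SLC27A6 rose by 2.83 in young (SE 0.41, adjusted p = 3.5e-06, edgeR) and 2.94 in old livers (SE 0.46, adjusted p = 8.3e-07, edgeR). DGAT2, which makes triglyceride, rose by 1.41 and 1.61 (adjusted p = 0.0016 and 0.031, edgeR), and the sterol carrier SCP2B by 1.08 and 1.25 (adjusted p = 0.018 and 0.0139, edgeR), in young and old livers. CIDEC, which enlarges lipid droplets, rose by 1.24 in old livers (adjusted p = 0.011, edgeR). ACSL1, which activates long-chain fatty acids, fell by 1.33 in young and 1.53 in old livers (adjusted p = 0.0075 and 9.4e-05, edgeR). Relative to the median of all genes, SLC27A6 changed by 2.4 and 2.485, DGAT2 by 0.978 and 1.15, and SCP2B by 0.645 and 0.792, in young and old livers. ACSL1 changed by -1.76 and -1.99 in the same order, and CIDEC by 0.782 in old livers. The calls of list genes were not followed through the alternative scalings and fits. The medians of all genes used here moved with the genes kept and with depth, as given for FABP10A. The list medians were not followed in that way.

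With age 2 of 30 list genes tested passed in GR livers, where 3.54% of all genes did, and 1 of 19 in control livers, where 2.1% did. In control livers ACSL1 rose by 1.18 (adjusted p = 0.0153, edgeR), and in GR livers the lipase-like PNPLA3 Nfu_g_1_018110 rose by 2.26 (adjusted p = 0.00136) and DGAT2 fell by 1.28 (adjusted p = 0.0156), both by edgeR. In muscle 1 of 15 list genes tested passed in GR females (6.02% of all genes), 2 of 14 in control females (3.99%), 1 of 14 in GR males (3.35%) and 0 of 16 in control males (4.63%). There DGAT1B Nfu_g_1_010767, a triglyceride-synthesizing enzyme, rose with age in GR females by 1.43 (adjusted p = 0.0484), in control females by 2.09 (adjusted p = 0.0051) and in GR males by 1.63 (adjusted p = 0.037), all by edgeR. The lipase LIPG fell by 3.55 in control females (SE 0.97, adjusted p = 0.0357, edgeR). Whether the LIPG call rested on 1 library, as that of FABP1 did in the same comparison, was not tested. No list gene passed with germ cell removal or sex in muscle.

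Among the genes of 50 CPM or more, those whose deviations from the group means were most like FABP10A over the 20 livers were OLA.16560 Nfu_g_1_019977, a dimethylaniline monooxygenase (r = 0.901), RPLP0 (0.895) and PABPC4 (0.876), where the median r over 1165 genes was 0.326. For FABP3 in liver they were SLC25A6 Nfu_g_1_005294 (0.933), RPSA (0.921) and RPS27A (0.908), with a median of 0.353. For FABP3 over the 40 muscles they were AK1 (0.804), TNNI2 Nfu_g_1_005734 (0.75) and TPM1 (0.741), with a median of 0.025 over 967 genes. These coefficients share each library's depth and scaling and are descriptions.

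In the killifish GRZ assembly used by the authors, FABP10A (Nfu_g_1_010874) spans 57318047 to 57318775 of synteny group 5 on the plus strand, FABP1 (Nfu_g_1_008834) spans 31272304 to 31273855 of synteny group 18 on the minus strand, and FABP3 (Nfu_g_1_016243) spans 18733571 to 18762150 of synteny group 19 on the plus strand. FABP3 shares 1479 bases with CYHR1, which had 0 or 1 counts a library. PLIN1 (Nfu_g_1_018332) spans 85828164 to 85831027 of synteny group 2 on the plus strand, and PLIN5 (Nfu_g_1_022691) spans 28829032 to 28841928 of synteny group 17 on the plus strand. Perilipin names differed between annotations, since by the genes on either side, the row named PLIN5 matched plin3 of the RefSeq annotation of assembly NfurGRZ-RIMD1 (9 shared neighbours) and the row named PLIN4 matched plin6 (7 shared neighbours). FABP10A, FABP3, FABP7A and PLIN2 matched genes of their own names, and FABP1, FABP2, PLIN1 and both FABP6 rows had 0 shared neighbours with any RefSeq gene of these families. The 8 RefSeq symbols of these families held none named for FABP1, FABP6 or PLIN1, so those rows could not match by name. A fabp2 gene was among them, and the FABP2 row did not match it.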

How the data were processed

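The authors deposited UMI counts per gene, without normalization, for each fish. Per the study's methods, reads were trimmed with Trim Galore 0.6.7, aligned to the killifish GRZ assembly with HISAT2 2.2.1, assigned to genes with featureCounts 2.0.1 and freed of UMI duplicates with UMI-tools, after deep libraries had been subsampled. A deposited list of other information, labels of which libraries were subsampled, marked all GR livers, no control liver and 36 of 40 muscles, so the depth of liver libraries differs with treatment. Groups came from the column names, under 2 pooled samples. Of the 20406 lines, the 18529 annotated genes were used, including genes without a name. The 20 male liver columns were not used here. Each pairwise comparison of 5 against 5 libraries was fitted with edgeR 4.0.16 (R 4.3.3; estimateDisp, glmQLFit, glmQLFTest, TMM) over genes with at least 10 counts in the libraries compared, with a Benjamini-Hochberg threshold of 0.05. Interactions used 20 libraries. Single values were tested by exact two-sided permutation (252 arrangements, smallest p 0.007937). A gene was named wherever it was called, and in each germ cell removal and age comparison of female liver. The genes and lists were chosen with earlier results of these data known, so none of their patterns is independent support. Alternatives were RLE and unscaled totals, scaling from genes at or below 1% of every library, filterByExpr, no filter beyond 1 count, thinned counts, DESeq2 1.42.0, all groups in 1 fit, a replicate block and leaving out each library. The ratios to hepatocyte and muscle markers were chosen after seeing the data. Replicate numbers correlated above 0.1 in all 5 pairs only for GR against control old male muscle (0.16 to 0.494). The main fits and permutation tests did not pair libraries, there or elsewhere, and the replicate block served as an alternative in each pairwise comparison. Over 120 pairs of libraries of a group, chi-square per degree of freedom was 1.46 to 11.2, so none was counted as a repeat. The intervals between fish cover the spread between these libraries only, and a group's floor (3 counts) covers only the counting error of the group at 0.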

Additional observations from a re-analysis of the deposited data

Results flagged for a closer look

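In 51 groups of 5 libraries with at least 10 counts of a member, the highest or lowest library was checked for a gap from the others above 0.71 of the group's range, and 5 groups had one. For normally spread values that cutoff flags about 1 in 20 groups. Its rate for counts as low as these was not computed, so the 5 cannot be read as an excess. In young control female muscle, replicate 2 stood at 596 CPM of FABP1 (94 counts), against 0 to 18.4 CPM in the other 4, and at 88.8 CPM of PLIN1 (14 counts). The report gives the ovary, adipocyte and hepatocyte markers of that library. In the same group, replicate 1 stood at 28.4 CPM of PLIN5 (4 counts), against 12.2 to 13.8 CPM in the others. In old control female muscle, replicate 5 had 0 CPM of PLIN1, against 11.9 to 16.2 CPM in the others. In old control male muscle, replicate 5 stood at 36.0 CPM of FABP6 Nfu_g_1_020514 (7 counts), against 0 to 8.73 CPM in the others.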

How the results depend on the processing

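The number of members called moved by over 1.5 times in 30 of 215 alternatives, and in 17 of 300 fits without 1 library. With thinned counts 1 member was called with germ cell removal in young and 1 in old livers, and 2 between tissues of young GR females. With filterByExpr 1 was called in old livers with germ cell removal, 1 with age in control livers, 2 with age in GR livers, 1 with age in control female and 1 in control male muscle, and 2 between tissues of young GR and 2 of old GR females. DESeq2 called 1 with age in control livers, GR livers, control female muscle and control male muscle, and 2 between tissues of young GR females. With every gene of 1 count, 1 was called with age in GR livers, 1 with germ cell removal in young female muscle, 1 between sexes of young controls and 4 between tissues of young controls. With all groups in 1 fit and with the replicate block, 1 was called with germ cell removal in young female muscle and 1 between sexes of young controls, namely FABP1. One fit gave 1 call in control male muscle with age, and the block 1 in control female muscle with age. The block changed no other call count beyond 1.5 times. RLE factors gave 1, and unscaled totals and scaling from genes at or below 1% gave 0, in control female muscle with age. Unscaled totals gave 1 in control male and 0 in GR male muscle with age. Without 1 library the counts were 1 to 2 with germ cell removal in young livers, 0 to 1 with age in control livers, 0 to 1 in GR livers, 0 to 2 in control female muscle, 1 to 2 in control male muscle and 0 to 1 in GR male muscle.

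Directions turned for FABP3 in young livers (0.029 with unscaled totals) and old livers (-0.22 with RLE, -0.24 with DESeq2, -0.34 with filterByExpr, -0.15 thinned, -0.10 to 0.24 without 1 library), for PLIN5 in young livers (-0.042 with RLE, -0.085 with DESeq2, -0.13 to 0.28 without 1 library) and old livers (-0.025 to 0.61 without 1 library), and for PLIN1 in young livers (-0.084 to 1.08 without 1 library). They also turned per marker count for FABP10A in young (-0.41) and old (-0.36) livers, and for FABP3 with age in control female (0.060), control male (0.39) and GR male muscle (0.10). The causes were not tested. Over all genes, calls numbered 523 (297 to 804) and 496 (227 to 605) with germ cell removal in young and old livers, 237 (110 to 336) and 71 (22 to 87) with age in GR and control livers, and 323 (210 to 789), 224 (199 to 468), 175 (122 to 608) and 240 (178 to 965) with age in GR female, control female, GR male and control male muscle. Between tissues they numbered 3294 (1219 to 3423) in old GR, 2536 (844 to 2631) in old control, 2579 (955 to 2998) in young GR and 2202 (786 to 2367) in young control females. In muscle the other comparisons had 0 to 37 calls, and 0 to 104 under the alternatives. With unscaled totals 68.1% and 71.3% of age calls were higher in old fish in GR and control livers (51.5% and 49.3% with TMM), and 89.5%, 82.3%, 94.7% and 96.1% in the 4 muscle groups in the order above (48%, 37.5%, 54.9% and 57.5% with TMM). PLIN2 and PLIN4 had 1 count each and were not tested.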

Other observations

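FABP6 Nfu_g_1_004422 was found more often in muscle than in liver, with 77 counts over 40 muscles and 11 over 20 livers. FABP6 Nfu_g_1_020514 had 32 counts in muscle and 1 in liver, with 0 counts in the 10 old female muscles. FABP7A, with 19 muscle counts, had 0 in liver. By group, FABP10A in muscle had 78.2 counts per 1000 hepatocyte marker counts in old GR females (23 counts) and 212.6 in old control females (54 counts), and 37.7 in old GR males (24 counts) and 48.1 in old control males (29 counts), against 65.1 in old GR livers and 83.4 in old control livers. Replicate 3 of the old control females held 27 of those 54 counts. The vitellogenins took up to 1.56% of the counts of old control female muscles and up to 0.24% of those of young control female muscles.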
